A study of Mus musculus with 4 samples.

Results

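Endothelial fatty acid uptake and transport was followed here through 8 genes: Cd36, Fabp4, Fabp5, Lpl, Gpihbp1, Meox2, Tcf15 and Pparg. They were taken by exact gene symbol from the 31253 genes of the count tables, and all 8 were present. Fatty acids reach the heart muscle across the endothelium, either bound to albumin or released from triglyceride-rich lipoproteins in the capillary lumen. GPIHBP1 carries lipoprotein lipase (LPL) to the luminal surface of capillary endothelial cells (ECs), where the enzyme cleaves triglycerides, CD36 takes up the released fatty acids, and the fatty acid binding proteins FABP4 and FABP5 hold them inside the cell. The transcription factors MEOX2 and TCF15 form a heterodimer known to drive this programme in cardiac capillary ECs, and PPARγ is a nuclear receptor activated by fatty acids with Cd36, Fabp4 and Gpihbp1 among its targets.

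The study asked how endothelial Scarb1, the gene of the lipoprotein receptor SR-BI, bears on heart failure with preserved ejection fraction (HFpEF). RFP-positive cells of the left ventricle were sorted by FACS from C57BL/6N mice with Cdh5-CreER, which drives an inducible Cre from a pan-endothelial promoter, a R26-stop-tdTomato reporter and a floxed Scarb1 (S fl/fl or S fl/+), and single-cell libraries were made with 10x Genomics 3′ chemistry (scecRNA-seq). Cre was induced with tamoxifen at 7 weeks of age in all mice. The 2 NC libraries came from mice on a chow with 10% of its energy from fat and normal water. The 2 HFpEF libraries came from mice on a high-fat diet (60% of energy) with 0.5 mg/ml L-NAME in the water, an inhibitor of nitric oxide synthase. The fat and the L-NAME cannot be told apart in these groups, and the word diet below stands for both together. The labels name the treatment of a library but not its Scarb1 genotype. In this experiment the paper compares 4 groups, S fl/fl and S fl/+ mice of each treatment, and there are 4 libraries. The 2 libraries of a group may therefore be its 2 genotypes and not replicates. Neither the number of mice behind a library nor its feeding time is given for these samples in the sources used here. Each p-value thus measures the spread between libraries only, which may hold a genotype difference.

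The files held 41843 cells, of which 40154 had more than 200 genes and less than 20% mitochondrial UMIs, the authors' limits, and 39829 were used once 325 hemoglobin-rich cells had been left out. The median depth per cell was 3753 and 4125 UMIs for NC but 1736 and 1618 UMIs for HFpEF, and any pair of libraries shared 10 to 42 cell barcodes. Clusters built without the 8 genes gave 31130 capillary ECs (78.2% of cells), 4774 artery ECs, 1251 vein ECs, 226 endocardial ECs and 1698 mural cells. In capillary ECs 6 capillary markers summed to 4622 to 6393 CPM (UMIs of the gene per 1000000 UMIs of the class). Of the artery markers, Hey1 was at 231 to 314 CPM in artery ECs against 40.5 to 70.1 CPM in capillary ECs. Not all were highest in artery ECs: Bmx was at 24.3 to 41.2 CPM there but at 133 to 253 CPM in endocardial ECs. Gja4 was at 101 to 177 CPM in artery ECs but at 241 to 343 CPM in mural cells. The pericyte marker Kcnj8 was at 258 to 483 CPM in mural cells against 0.858 to 1.16 CPM in capillary ECs. The 6 vein markers summed to 1972 to 2091 CPM in vein ECs against 62.8 to 79.7 CPM in capillary ECs. The 6 endocardial markers summed to 2256 to 3775 CPM in endocardial ECs against 36.8 to 45.9 CPM in capillary ECs. Endocardial ECs also held 3393 to 6086 CPM of the 6 vein markers and 2811 to 4983 CPM of 5 fibroblast markers, so that their name covers a mixed pattern. Of adipocytes, which are known to express Fabp4, Lpl, Pparg and Cd36, the 6 markers summed to at most 0.862 CPM in any of the 5 classes, with all of them at 0 in artery, vein and endocardial ECs.

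Levels were compared within a gene, as CPM of the summed UMIs of a class in each library. Lpl, the lipase itself (chr8:68880491-68907448, plus strand, GRCm38), had 1760.3 and 1407 CPM in capillary ECs of NC libraries 1 and 2 and 1425 and 1271 CPM in those of HFpEF libraries 1 and 2. Vein ECs held 964, 944, 484 and 786 CPM in the same order, artery ECs 785, 659, 607 and 736 CPM, and mural cells 530.2, 419, 494 and 467 CPM. Capillary ECs were thus above all other classes in every library, with 2.10-fold of the artery level and 1.90-fold of the vein level on average. Gpihbp1, the carrier of the enzyme (chr15:75596628-75599481, plus strand), had 2708, 2769, 1930.2 and 2158 CPM in capillary ECs. Its level was 2003, 1792, 1026 and 1442 CPM in artery ECs and 1494, 1512, 809 and 1055 CPM in vein ECs, the order capillary, artery, vein holding within each library although the ranges over the libraries overlapped.

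Cd36, the fatty acid translocase (chr5:17781690-17888801, minus strand), was spread most evenly over the vessel classes. Capillary ECs had 4977, 4760.3, 5208 and 5669.7 CPM, artery ECs 4554, 4237, 4591 and 5153 CPM, and vein ECs 4265, 3775, 4363 and 5142 CPM. Within a library the capillary level was the highest each time, but by only 0.15 ± 0.03 (SD, n = 4) on the log2 scale over artery ECs and 0.24 ± 0.08 over vein ECs. Fabp4 (chr3:10204088-10208576, minus strand) had 27695, 36377, 27669.8 and 28134 CPM in capillary ECs, and 21487 ± 2890 CPM (SD, n = 4) in artery ECs and 19441 ± 3576 CPM in vein ECs. The capillary range lay above that of artery ECs, whereas the ranges of artery and vein ECs overlapped.

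Fabp5 (chr3:10012548-10016607, plus strand), the paralog of Fabp4 on the same chromosome, had another order. Its level was 1125, 1259, 1026 and 1088 CPM in capillary ECs, 995, 1195, 705 and 934 CPM in vein ECs, and 522, 455, 409.7 and 533 CPM in artery ECs. Endocardial ECs held 3388, 4159, 1365 and 1895 CPM, so that Fabp5 was the single gene of the 8 that was higher in endocardial than in capillary ECs in 4 of 4 libraries. The other 7 genes were lower there: Cd36 was at 1038 ± 251 CPM (SD, n = 4) in endocardial ECs, Fabp4 at 4434 ± 1324 CPM, Lpl at 154 ± 117 CPM, Gpihbp1 at 277 ± 106 CPM and Tcf15 at 54.1 ± 19.4 CPM.

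Among the transcription factors, Tcf15 (chr2:152143561-152149097, plus strand), a basic helix-loop-helix factor, had 512, 681, 495 and 392 CPM in capillary ECs, against 425 ± 63.1 CPM (SD, n = 4) in artery ECs and 337 ± 121 CPM in vein ECs. Meox2 (chr12:37108540-37179534, plus strand, with the sense intronic Gm48617 inside it), a homeobox factor, had 170.4, 179, 236 and 203 CPM in capillary ECs and 196, 205, 209.6 and 267 CPM in vein ECs, and the vein level was the higher in 3 of 4 libraries. Pparg (chr6:115360951-115490399, plus strand, with the antisense Gm44079 overlapping it) had 159, 133, 123 and 131 CPM in capillary ECs and 164, 140.2, 126 and 121 CPM in artery ECs, which did not differ beyond their spread (log2 ratio -0.01 ± 0.09, SD, n = 4). In vein ECs Pparg was lower, at 71.3, 59.5, 70.8 and 60.9 CPM. Meox2 and Pparg had 2 to 14 UMIs in endocardial ECs of any library, the levels there being 9.35 to 37.7 CPM and 6.43 to 26.5 CPM.

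**Figure D1:**
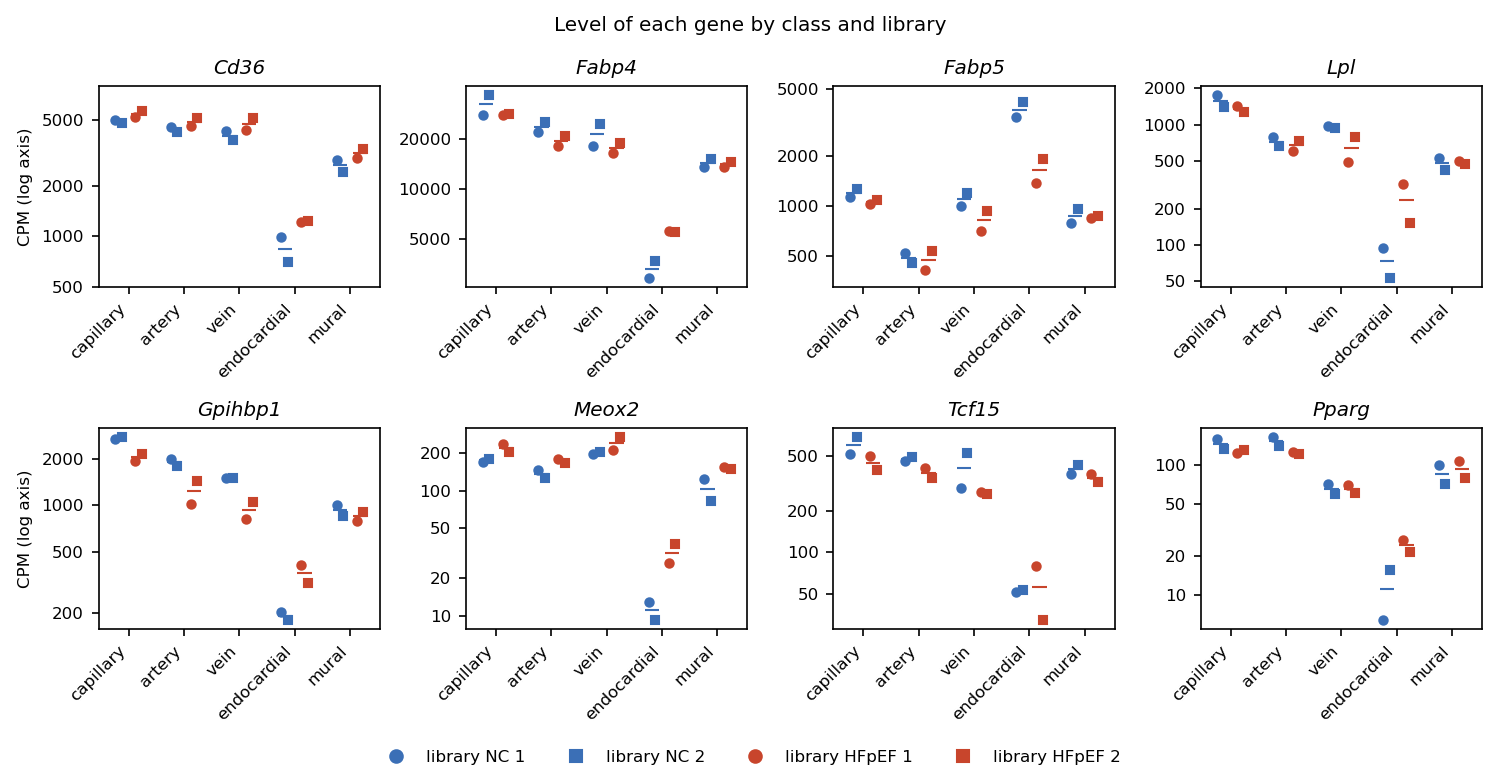
Level of each of the 8 genes in CPM of summed UMIs (log axis) in capillary, artery, vein and endocardial ECs and mural cells. Points are libraries, circles number 1 and squares number 2, blue NC and red HFpEF, and short lines are means of 2 libraries. Fabp5 is highest in endocardial ECs, where the 7 others have their lowest level.

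Capillary ECs were above artery ECs in 4 of 4 libraries for 7 of the 8 genes, beside 19.1% of all genes with a mean of at least 10 CPM. The count was 7 of 8 against vein ECs (all genes 18.3%), or 6 of 8 with clusters at resolution 1.2, where Fabp5 turned to -0.052 on the log2 scale. It was 7 of 8 against endocardial ECs (21.3%) and 8 of 8 against mural cells (21.7%). With 4 libraries the exact permutation test by sign flips (two-sided) cannot go under a p of 0.13, and 30 of the 32 ratios had that p (adjusted over the 32, 0.133). The exceptions were Meox2 against vein ECs (p = 0.25) and Pparg against artery ECs (p = 0.875), both by the same exact permutation test. Because these are the genes of a capillary programme and were chosen as such, the counts describe them and test nothing about the choice.

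Classes outside the endothelium also held endothelial RNA. The 5 endothelial markers summed to 2039 to 2548 CPM in mural cells and 1336 to 1955 CPM in a T cell class of 83 cells and 2201 to 2569 CPM in a B cell class of 157 cells, against 4049 to 4622 CPM in capillary ECs. In the T cell class Cd36 was at 1867 to 2116 CPM, Fabp4 at 5324 to 14201 CPM, Lpl at 264 to 766 CPM and Gpihbp1 at 491 to 713 CPM. After each cell was thinned to 1000 UMIs, an Lpl UMI was found in 63.0 to 73.2% of capillary ECs, in 28.0 to 34.1% of mural cells and in 5.88 to 33.3% of T cells (median depths of 1856 to 4036, 2519 to 6247 and 2351 to 7535 UMIs per cell). In the B cell class Cd36 was at 2166 to 3184 CPM, Fabp5 at 479 to 1007 CPM, Gpihbp1 at 945 to 1315 CPM and Tcf15 at 222 to 309 CPM. The range of mural levels over the libraries lay above both lymphocyte classes for Tcf15, and overlapped with at least 1 of them for the 7 other genes, whose mural levels are therefore not read as expression. The endocardial levels of Cd36, Fabp4, Lpl and Gpihbp1 lay below those of the T cell and B cell classes in each of the 4 libraries. The range of vein ECs overlapped with that of the B cell class for Fabp4, Fabp5, Lpl, Gpihbp1, Tcf15 and Pparg, and lay above it for Cd36 and Meox2. The artery range overlapped with the B cell range for Fabp5, Lpl, Gpihbp1 and Meox2, and lay above it for Cd36, Fabp4, Tcf15 and Pparg. Fabp5 in artery ECs (410 to 533 CPM) lay below that class in each of the 4 libraries. Pparg in vein ECs (59.5 to 71.3 CPM) overlapped with it (64.7 to 81.9 CPM). The part of free RNA or of joined cells in these values was not tested.

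Within capillary ECs, 12 subclusters were compared, in which the 8 genes had not been used for clustering. Values are relative to all capillary ECs of the same library, as log2 means over 4 libraries, and have no test because the subclusters come from the same cells. Subcluster 10 (1149 cells, led by Pgf, Apln and Ccl2) held the lowest level of 6 of the 8 genes. Lpl was at 949, 651, 667 and 592 CPM there, 1.05 ± 0.11 (SD, n = 4) below the capillary level on the log2 scale. Tcf15 was at 279, 318, 265 and 276 CPM, which was 0.84 ± 0.24 below, and Cd36 at 3183, 2793, 3439 and 4069 CPM, which was 0.62 ± 0.12 below. Fabp5 did not share this pattern, with 0.03 ± 0.16 above the capillary level in subcluster 10. Gpihbp1 had its lowest level in subcluster 9 (1682 cells, led by Nts, Gdf15 and Il6), at 1768 CPM on average.

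At the other end, subcluster 6 (2209 cells, led by Apoe, Gstt2 and H4f16, with the capillary marker Timp4 among its leading genes) was above the capillary level in 4 of 4 libraries for Cd36, Fabp4, Lpl, Gpihbp1 and Meox2. Gpihbp1 was at 3689, 3735, 2601 and 3053 CPM there, 0.45 ± 0.03 (SD, n = 4) above on the log2 scale, and Lpl at 2210.3, 1717, 1789 and 1602 CPM, 0.32 ± 0.02 above. Subcluster 7 (2182 cells, led by Samd5 and Aplnr) held the highest Fabp5 (1469 ± 141 CPM) and the highest Meox2 (246 ± 59.9 CPM) together with a Pparg 0.35 ± 0.04 below the capillary level. In subclusters 2 and 8, which were led by artery genes (Hey1, Alox12, Sema3g and Fbln5), Fabp5 was 0.35 ± 0.13 and 0.48 ± 0.36 below and Pparg 0.22 ± 0.05 and 0.27 ± 0.31 above. Lpl varied most between subclusters, 2.56-fold from the lowest to the highest, and Meox2 least, from 165 to 246 CPM.

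**Figure D2:**
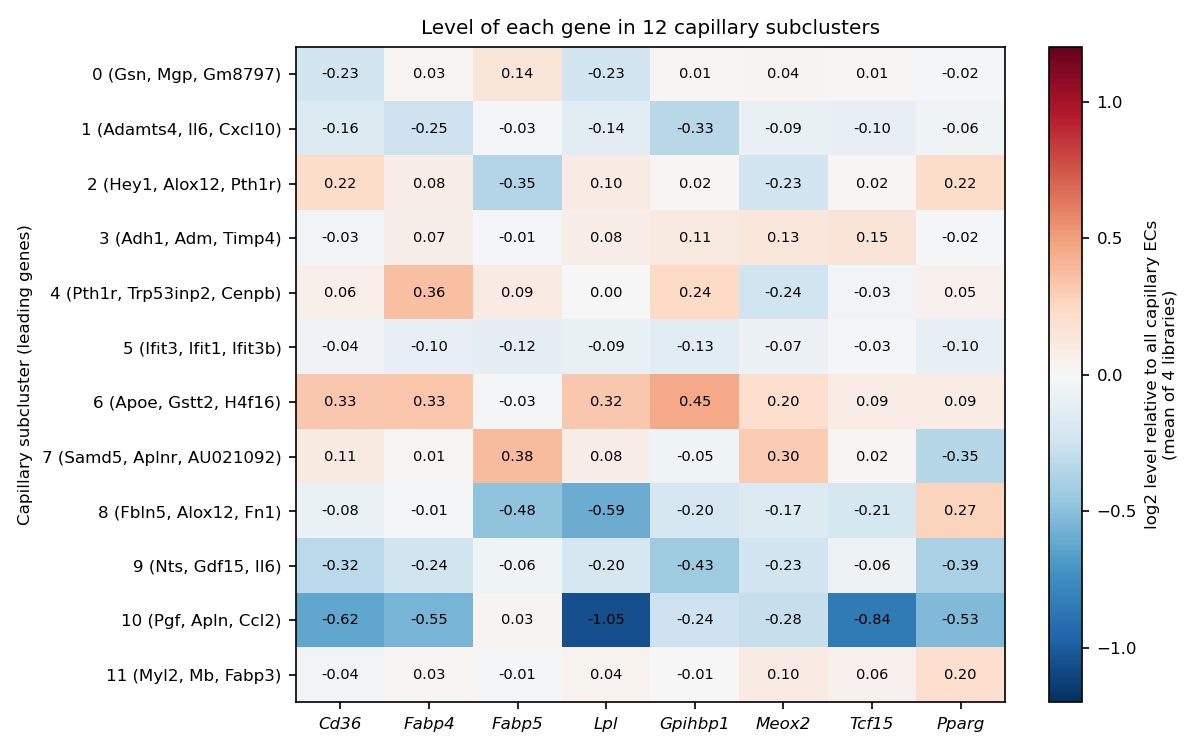
Level of each of the 8 genes (columns) in the 12 capillary subclusters (lines, with 3 leading genes each), as the log2 ratio to all capillary ECs of the same library, averaged over 4 libraries. Red is above and blue below the capillary level, and the deepest blue is Lpl at -1.05 in subcluster 10.

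HFpEF and NC were then compared in capillary ECs, by edgeR's quasi-likelihood test on the summed UMIs of the 4 libraries. The capillary ECs of the diets were spread unequally over the subclusters. Subcluster 0 (led by Gsn and Mgp) held 229 and 155 cells of the NC libraries and 873 and 3571 of the HFpEF libraries, and subcluster 9 held 58 and 35 against 156 and 1433, whereas subcluster 6 held 756 and 915 against 248 and 290. The part of this shift in the summed values was not tested. In simulated counts the capillary fit recovered only 1 of 200 genes set to a log2 fold change of 0.5, so that the lack of a call says little about changes of this size. None of the 8 genes passed an adjusted p of 0.05. One gene did among 12387 tested (0.00807%), Cyp1a1, an enzyme of xenobiotic oxidation (log2 fold change -4.31 ± 0.23, edgeR adjusted p = 0.00184), while 2269 genes (18.3%), Gpihbp1, Meox2 and Tcf15 among them, had an unadjusted p under 0.05, and DESeq2 called 246 genes.

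The values were as follows. Gpihbp1 was lower in both HFpEF libraries (1930.2 and 2158 CPM) than in both NC libraries (2708 and 2769 CPM), with a log2 fold change of -0.42 ± 0.12 (SE) and an edgeR adjusted p of 0.163. DESeq2 gave -0.41 with an adjusted p of 0.0328, and edgeR without a filter on low counts -0.43 with 0.0469. Tcf15 had -0.42 ± 0.17 (edgeR adjusted p = 0.256), its HFpEF libraries (495 and 392 CPM) lying under its NC libraries (512 and 681 CPM) with 1 pair close together. It was -0.21 without NC library 2 and -0.25 without HFpEF library 2, but -0.61 without NC library 1 and -0.62 without HFpEF library 1. Meox2 had 0.33 ± 0.12 (edgeR adjusted p = 0.209) and was higher in both HFpEF libraries (236 and 203 CPM) than in both NC libraries (170.4 and 179 CPM), the value being 0.20 without HFpEF library 1 and 0.46 without HFpEF library 2. MEOX2 and TCF15, partners in 1 complex, thus had values on opposite sides of 0.

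Cd36, likewise without overlap, had 0.16 ± 0.13 (edgeR adjusted p = 0.529). Fabp5 had -0.17 ± 0.11 and Pparg -0.20 ± 0.12, with the libraries apart, and Lpl -0.23 ± 0.15 and Fabp4 -0.20 ± 0.18, with the libraries overlapping (edgeR adjusted p from 0.415 to 0.607). The Fabp4 value came from NC library 2 (36377 CPM), since without it the log2 fold change was 0.01, and it was -0.38 without NC library 1. Without NC library 1 Lpl was at -0.056 and Pparg at -0.061, and without NC library 2 Fabp5 was at -0.091, Lpl at -0.39 and Pparg at -0.32. Lpl was at -0.13 without HFpEF library 2. In all, the libraries of the diets did not overlap for 6 of the 8 genes, beside 50.6% of all genes tested, and the median log2 fold change of the 8 genes was -0.20, beside -0.0046 over all genes. The 6 capillary markers had lower values as well, with a median log2 fold change of -0.29 (3 of 6 apart and lower, none called) and a sum of 6393 and 6070 CPM in NC against 4717 and 4622 CPM in HFpEF. Whether this bears on Gpihbp1 was not tested.

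Inside the subclusters the direction held for some of the genes and not for others. Cd36 and Meox2 were higher in HFpEF in 12 of 12 subclusters, with the libraries apart in 11 each, and Gpihbp1 was lower in 10 of 12, apart in 9. Tcf15 was lower in 11 of 12 and apart in 6. Fabp4 was lower in 12 of 12 but apart in 1. Fabp5 and Pparg were lower in 9 of 12 and Lpl in 8 of 12. Against their direction in all capillary ECs, with the libraries apart, Lpl was higher by 0.58 (log2) in subcluster 8 and by 0.20 in subcluster 4, Fabp5 by 0.29 in subcluster 8, Gpihbp1 by 0.09 in subcluster 4 and Pparg by 0.68 in subcluster 9, where a library had as few as 6 Pparg UMIs. In subcluster 8 the NC libraries had 80 and 66 cells, with 91 and 75 Lpl UMIs and 93 and 62 Fabp5 UMIs. The median depth was 924 UMIs per cell in subcluster 4 and 958 in subcluster 8. The subclusters are parts of the same libraries and are not replicates of the diet. The share of all genes with libraries apart was not counted within subclusters, and was 50.6% in all capillary ECs.

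In artery ECs, vein ECs and mural cells no member was called either, beside 0.0831%, 0.303% and 0.276% of all genes tested. The libraries of the diets did not overlap for 6 of 8 genes in artery ECs (all genes 44.8%), 6 of 8 in vein ECs (42.0%) and 2 of 8 in mural cells (40.9%). Gpihbp1 was at 2003 and 1792 CPM in NC against 1026 and 1442 CPM in HFpEF in artery ECs, a log2 fold change of -0.61 ± 0.16 (SE, edgeR adjusted p = 0.214). In vein ECs it was at 1494 and 1512 CPM against 809 and 1055 CPM (-0.67 ± 0.18, edgeR adjusted p = 0.173). Both values lay further from 0 than the capillary one, but neither difference passed the interaction test (artery minus capillary -0.20 ± 0.08, vein minus capillary -0.27 ± 0.11, edgeR adjusted p = 0.724 and 0.701). The B cell class held 1315 and 1208 CPM of Gpihbp1 in NC against 945 and 1162 CPM in HFpEF. Both the artery and the vein range overlapped with it, and the vein level lay below it in both HFpEF libraries. The part of free RNA in the artery and vein values of Gpihbp1 was not tested.

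Lpl had -0.55 ± 0.20 in vein ECs (edgeR adjusted p = 0.319), -0.09 ± 0.14 in artery ECs and 0.05 ± 0.15 in mural cells. Meox2 had 0.33 ± 0.13 in artery ECs, 0.29 ± 0.18 in vein ECs and 0.61 ± 0.19 in mural cells, where its HFpEF libraries (155 and 148 CPM) lay above its NC libraries (123 and 82.0 CPM) at an edgeR adjusted p of 0.250. The mural levels of Meox2 and Lpl overlapped with those of the T cell class, so that these mural values are not read as responses of mural cells. Lpl in vein and artery ECs overlapped with the T cell class as well (264 to 766 CPM). In HFpEF library 1 the vein level of Lpl (484 CPM) lay below the T cell and B cell classes (766 and 556 CPM). The part of free RNA in the vein and artery values of Lpl was not tested. The direction of Meox2 was the same in capillary, artery and vein ECs, and so was that of Cd36. Meox2 was also apart and higher in HFpEF in the B cell class (121 and 76.1 against 142 and 136 CPM, from 9, 17, 11 and 35 UMIs). The artery range of Meox2 (127 to 179 CPM) overlapped with that of this class, the artery level being the higher within each library. The part of free RNA in the artery value of Meox2 was not tested. Against capillary ECs, the response of no member differed in artery ECs, vein ECs or mural cells by the interaction test, which called 0.276%, 0.222% and 0.497% of all genes in the 3 comparisons.

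**Figure D3:**
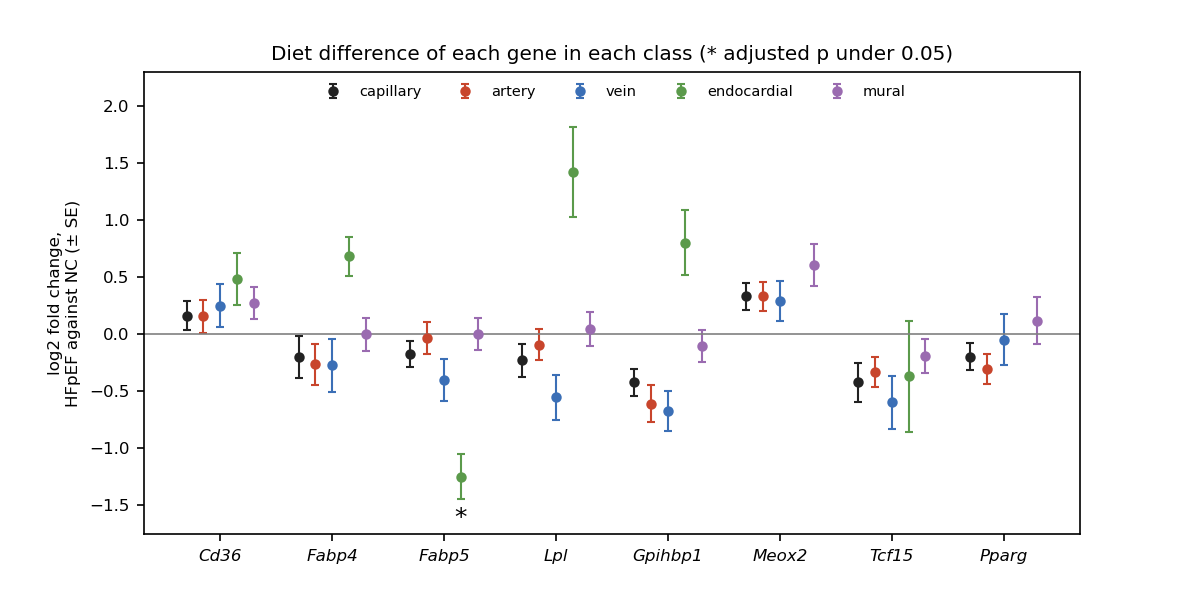
Log2 fold change of HFpEF against NC for each of the 8 genes in each class, with its standard error (edgeR, 2 against 2 libraries). Colours are classes, and the star marks the 1 value with an adjusted p under 0.05, Fabp5 in endocardial ECs at -1.25, while Cd36, Fabp4, Lpl and Gpihbp1 in endocardial ECs lie above 0 and the other classes lie within 0.7 of it.

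Endocardial ECs, which numbered 48 and 53 cells in NC and 26 and 99 in HFpEF, gave a different picture. Fabp5 was at 3388 and 4159 CPM in NC against 1365 and 1895 CPM in HFpEF, and its fall by 1.25 ± 0.20 (SE) on the log2 scale was called (edgeR adjusted p = 0.00155). It was the one call among the 6 genes with counts enough to be tested, beside 0.934% of all genes, Meox2 and Pparg having been removed by the filter on low counts. After thinning to 1000 UMIs, a Fabp5 UMI was found in 83.3% and 88.5% of NC cells and in 58.3% and 68.0% of HFpEF cells (unthinned 95.8%, 96.2%, 73.1% and 90.9%). The call was lost without either NC library at folds of about the same size (-1.37 and -1.09, edgeR adjusted p = 0.816 and 0.882), in fits that called 0 genes in all, against 305 and 228 genes at an unadjusted p under 0.05. The log2 fold change was -1.05 without HFpEF library 1 and -1.52 without HFpEF library 2. The call was also lost with a marker gate on single cells (log2 fold change -0.64), in a fit that called 0 of 1020 genes tested. It was kept after thinning to 1000 UMIs (-0.95, edgeR adjusted p = 0.00370), where 15 of 830 genes tested were called.

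Values of 4 other members lay in the opposite direction. Fabp4 was at 2935 and 3707 CPM in NC against 5606 and 5487 CPM in HFpEF (log2 fold change 0.68 ± 0.17, edgeR adjusted p = 0.0587). Lpl was at 93.2 and 53.0 CPM against 318 and 151 CPM (1.43 ± 0.39, edgeR adjusted p = 0.103), from 29, 17, 24 and 56 UMIs. Its log2 fold change was 0.98 without HFpEF library 1 and 2.06 without HFpEF library 2. Gpihbp1 was at 203 and 181 CPM against 411 and 312 CPM (0.80 ± 0.29, edgeR adjusted p = 0.303), and Cd36 at 990.2 and 701 CPM against 1219 and 1241 CPM (0.49 ± 0.22, edgeR adjusted p = 0.547). The libraries did not overlap for these 4 and for Fabp5, 5 of 6 genes tested beside 38.8% of all genes, whereas Tcf15, with 6 to 17 UMIs a library, overlapped.

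Against the capillary response, 4 members differed by the interaction test, which called 0.562% of 11564 genes. The endocardial response of Fabp5 lay 1.13 ± 0.19 (SE) below the capillary one on the log2 scale (edgeR adjusted p = 5.87e-06), and that of Fabp4 0.82 ± 0.17 above it (8.86e-04). Lpl and Gpihbp1 differed by 1.61 ± 0.30 and 1.15 ± 0.25 (edgeR adjusted p = 5.51e-05 and 0.0011). Without NC library 2, Fabp4, Lpl and Gpihbp1 were no longer called, without NC library 1 Fabp4 and Gpihbp1 were not, and after thinning to 1000 UMIs none of the 4 was, the responses still lying on the same side.

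Other measures moved with the diet in the same cells. The 6 endocardial markers summed to 3604 and 3775 CPM in NC against 2399 and 2256 CPM in HFpEF, with none of them called and 4 of 6 apart and lower. For the 6 capillary markers the sums were 547 and 508 CPM against 994 and 1058 CPM, with 4 of 5 tested apart and higher and 1 called. The 6 vein markers summed to 6086 and 6005 CPM against 3393 and 4585 CPM, with 2 of 5 tested called, 3 apart and lower and 1, Selp, apart and higher (106 and 31.2 CPM against 146 and 385 CPM). The median depth went from 6518 and 6106 to 2139 and 2996 UMIs per cell. The level that Fabp4, Lpl and Gpihbp1 reached in HFpEF lay below that of the T cell class in the same libraries (Fabp4 9952 and 8503 CPM, Lpl 766 and 333 CPM, Gpihbp1 669.9 and 559 CPM). The endocardial differences of Fabp4, Lpl, Gpihbp1 and Cd36, whose levels lay below both lymphocyte classes, are therefore not read as responses of endocardial cells. The part of the marker sums and the depth in the endocardial values was not tested.

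**Figure D4:**
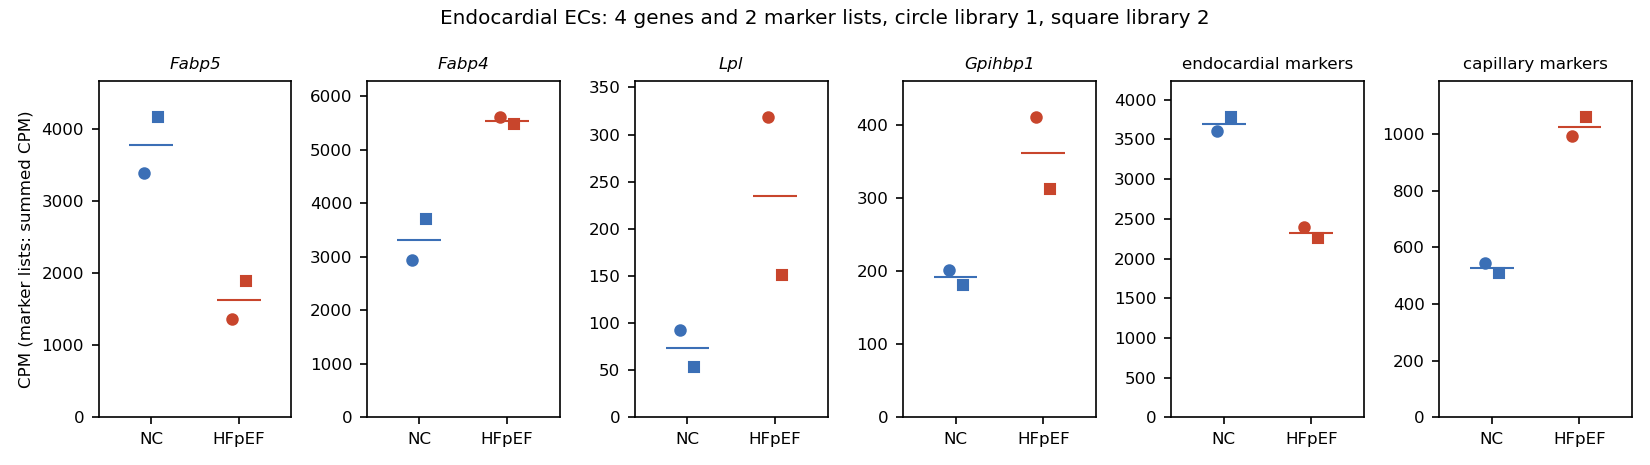
Endocardial ECs: level of Fabp5, Fabp4, Lpl and Gpihbp1 and summed level of 6 endocardial and 6 capillary markers, in CPM on axes from 0, in NC (blue) and HFpEF (red) libraries. Points are libraries, circles number 1 and squares number 2, and lines are means of 2; Fabp5 and the endocardial markers lie lower in HFpEF, the other 3 genes and the capillary markers higher.

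Other genes of lipid handling were read from 8 lists with 82 genes in all, and none of them was called in capillary ECs. Of 12 fatty acid transport proteins and acyl-CoA synthetases, 8 were tested, 1 had an unadjusted p under 0.05 (all genes 18.3%) and the median log2 fold change was 0.05. That gene was Acsl4, an acyl-CoA synthetase with a preference for arachidonic acid, at 19.7 and 23.5 CPM in NC against 28.7 and 30.3 CPM in HFpEF (0.45 ± 0.12, SE, edgeR adjusted p = 0.146), while Acsl5 had 0.10 ± 0.11. Of the other fatty acid binding proteins, Fabp3, the form of heart muscle, had 16.1 and 10.3 CPM against 67.4 and 21.4 CPM (1.68 ± 0.50, edgeR adjusted p = 0.165). Beside it, 6 cardiomyocyte markers summed to 113, 78.0, 326 and 108 CPM in the same libraries, and both were highest in HFpEF library 1.

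Of the partners and inhibitors of LPL and related lipases, 8 of 15 were tested, with a median of 0.03. Sel1l, an adaptor of protein degradation in the endoplasmic reticulum that LPL needs to leave it, was at 52.8 and 48.3 CPM in NC against 36.3 and 41.7 CPM in HFpEF (-0.36 ± 0.11, SE, edgeR adjusted p = 0.171). Furin, a protease that can cleave LPL, had 0.37 ± 0.16. Lipid droplet and lipolysis genes had 3 members higher and 3 lower at an unadjusted p under 0.05 among 12 tested, beside 18.3% of all genes, with a median of -0.02. Dgat1, which makes triglycerides, was at 16.8 and 15.7 CPM against 10.8 and 11.8 CPM (-0.52 ± 0.13), and Hilpda, an inhibitor of lipolysis, at 35.6 and 37.1 CPM against 45.3 and 64.0 CPM (0.61 ± 0.15), both at an edgeR adjusted p of 0.140.

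PPAR targets had 3 of 10 tested genes higher and none lower at an unadjusted p under 0.05, beside 18.3% of all genes in either direction, with a median of 0.06. Pdk4, a kinase that restrains glucose oxidation, was at 10.8 and 11.4 CPM in NC against 20.6 and 20.9 CPM in HFpEF (0.91 ± 0.12, SE, edgeR adjusted p = 0.0817), the smallest p among the list genes, and Acot2, a mitochondrial thioesterase, had 0.62 ± 0.19. Among PPAR and RXR factors and coactivators (6 of 9 tested, median -0.13), Rxrb had -0.34 ± 0.10 and Med1 0.33 ± 0.10. Of 9 signals known upstream of the pathway, all tested (median 0.07), Apln, an endothelial peptide, had 0.63 ± 0.23 and Nrp1, a co-receptor of VEGF ligands, 0.26 ± 0.13. The 5 caveolar genes had a median of 0.05, with Cavin1 at 0.08 ± 0.11 and Ehd2, which sits at the caveolar neck, at -0.33 ± 0.10.

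**Figure D5:**
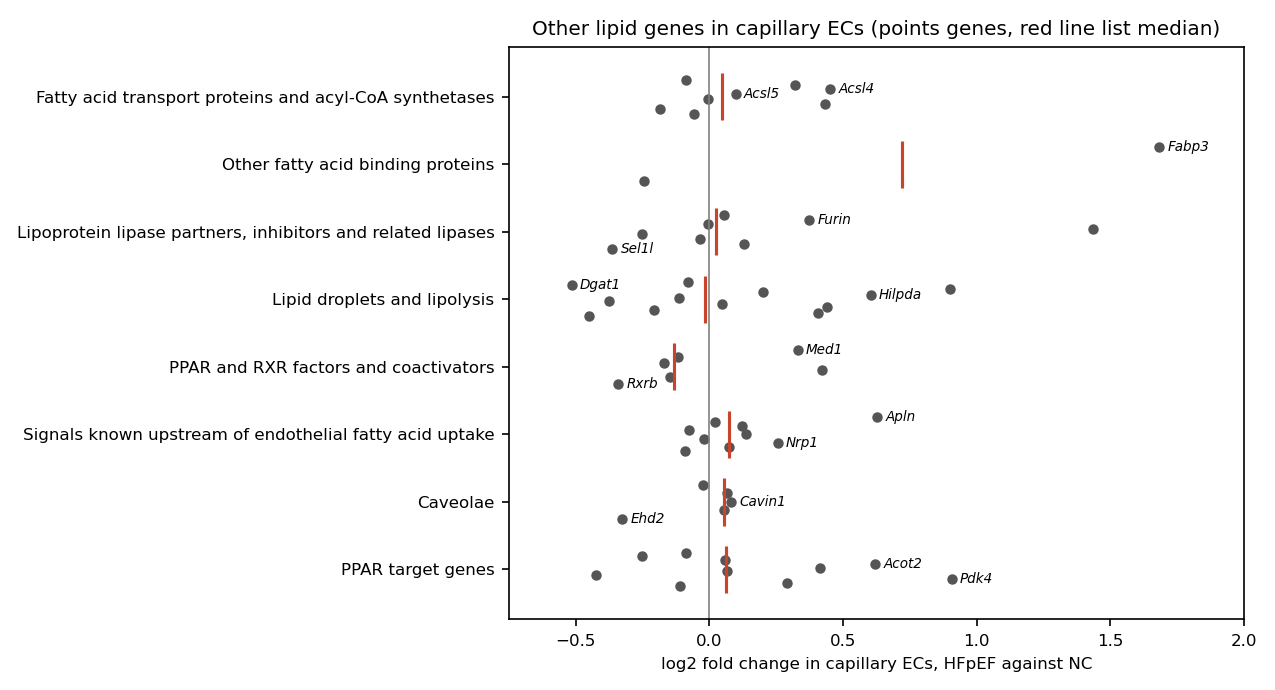
Log2 fold change of HFpEF against NC in capillary ECs (edgeR) for the tested genes of 8 lipid gene lists. Each point is a gene, the red line is the median of a list, and the labelled genes are the 1 or 2 with the largest change per list among those with a mean of at least 10 CPM; the medians lie between -0.13 and 0.07 except for the list of 2 other binding proteins, and no gene was called.

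Likeness between genes was described by Pearson's r of log2(CPM + 1) over 20 values, 5 classes in each of 4 libraries, against 8209 genes. Values of a library share its depth and cells, and the classes differ in most genes, so that r is a description. Gpihbp1 and Fabp4 were most alike among the 8 genes (r = 0.976), and Smco4 was nearest to Fabp4 (0.982). Lpl was nearest to Rgcc and Slc28a2 (0.975 and 0.973), both of which belong to the capillary markers used here, and then to Gpihbp1 (0.966). The genes nearest to Pparg were Ablim3, Depp1 and Pola2 (0.972, 0.971 and 0.963), those nearest to Tcf15 Fam89a, Spry1 and Etl4 (0.968, 0.961 and 0.940), and those nearest to Gpihbp1 after Fabp4 were Ybx1 and Rgcc (0.970 and 0.970). Fabp5 stood apart: it was nearest to the ribosomal protein genes Rps7, Rpl37 and Rpl6 (0.909, 0.899 and 0.898) and had negative r with Cd36, Fabp4, Lpl and Gpihbp1 (-0.773, -0.700, -0.642 and -0.664).

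Cd36 and Meox2 shared Plcb4 as their nearest gene (0.973 and 0.971), had r = 0.966 with each other, and were the pair with a higher value in HFpEF in every capillary subcluster. Their promoters are therefore shown, as the 250 bases before the RefSeq start on the strand of the gene (GRCm38.p6), chr5:17835897-17836146 on the minus strand for Cd36, where that start lies inside the annotated gene, and chr12:37108290-37108539 on the plus strand for Meox2. Of the 8 genes, Cd36, Meox2 and Pparg were matched to the promoter table. Capitals mark matches on either strand to any of 6 short motifs, given with their share of 32851 promoters of this length. These were AGGTCA (a part of the site of nuclear receptors such as PPARs, 14.0%), CANNTG (E-box of helix-loop-helix factors, 66.2%) and TAATTA (homeobox core, 4.84%). The others were TGTTTA (forkhead core, 12.03%), TGGGAA (RBPJ core, 21.6%) and TATAAA (core promoter box, 12.4%).
Cd36: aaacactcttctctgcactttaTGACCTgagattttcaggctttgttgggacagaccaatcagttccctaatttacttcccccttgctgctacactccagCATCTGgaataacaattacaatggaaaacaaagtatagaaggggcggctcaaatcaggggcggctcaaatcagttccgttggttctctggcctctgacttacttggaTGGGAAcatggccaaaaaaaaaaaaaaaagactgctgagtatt
Meox2: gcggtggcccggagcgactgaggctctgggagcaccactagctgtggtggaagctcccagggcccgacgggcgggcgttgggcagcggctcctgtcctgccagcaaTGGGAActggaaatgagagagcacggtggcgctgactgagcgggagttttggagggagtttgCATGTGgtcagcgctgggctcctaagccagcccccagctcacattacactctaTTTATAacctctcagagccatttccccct

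The Cd36 window held 1 AGGTCA match, whose first base was 228 bases before the start, 1 E-box and 1 RBPJ core. The AGGTCA match is only a part of a nuclear receptor site, and whole sites were not searched for. The Meox2 window held 1 E-box, 1 RBPJ core and a TATA box whose first base was 29 bases before the start. Neither held a homeobox or forkhead core. Matches of this length are frequent, and they describe the letters only.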

How the data were processed

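The files the authors deposited are UMI counts, 1 matrix of genes by cells for each of 4 libraries. Per the labels and the methods, reads were trimmed with fastp, aligned to mm10 with Cell Ranger 5.0.1, downsampled between samples and aggregated, so that depth is not that of the sequencing run. Cells with over 200 genes, under 20% mitochondrial and under 1% hemoglobin UMIs were clustered (scanpy 1.11.5, Louvain in python-igraph 0.11.9, 2000 variable genes without the 8 genes, 10 components, 20 neighbours, resolution 0.8) and classed by markers. Doublets were kept, since Scrublet's automatic threshold called 1 cell, and leaving out its highest scores was an alternative. That alternative left out 405 of 7114 and 358 of 6687 cells in the NC libraries. In the HFpEF libraries it left out 237 of 5440 and 3391 of 20588 cells. UMIs were summed per library and class and compared with edgeR 4.0.16 (quasi-likelihood, TMM, filterByExpr, Benjamini-Hochberg over all genes tested, threshold 0.05), interactions in a fit over 2 classes. DESeq2 1.42.0 was an alternative. Ratios of classes had a prior of 1 CPM. The capillary fit was tested on simulated counts with 200 changed genes. It recovered 0.5% of them at a log2 fold change of 0.5, 74.5% at 1 and 95.5% at 2. False calls were 3 of 4, 13 of 162 and 27 of 218. Genes were matched to the GRCm38 annotation for 31107 of 31253 IDs (99.5%). The genes named from lists were any called, otherwise the 2 largest changes at a mean of 10 CPM or more, and the 3 genes most like each of the 8. The 8 genes, the lists and the tests were chosen with earlier results of these data known. Counting error only is covered by shares of cells.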

Additional observations from a re-analysis of the deposited data

Results flagged for a closer look

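Of 32 within-library ratios between capillary ECs and another class, 1 had a library far from the other 3: the log2 ratio of Pparg between capillary and vein ECs, whose lowest library was separated by a gap of 0.845 of the whole range (above Dixon's 95% critical value for 4 libraries). About 1 in 20 such groups is marked by chance. The response to the diet differed between endocardial and capillary ECs for 4 of the 8 genes by the edgeR interaction test, among 32 differences compared. The endocardial minus capillary difference in log2 fold change was 0.82 for Fabp4, -1.13 for Fabp5, 1.61 for Lpl and 1.15 for Gpihbp1. The endocardial levels of Fabp4, Lpl and Gpihbp1 lay below those of the T cell and B cell classes in each of the 4 libraries. Their differences are therefore not read as responses of endocardial cells. All 4 values rest on 226 endocardial ECs, in which the depth per cell and the sums of endocardial, vein and capillary markers differed between the diets too. The part of these measures was not tested.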

How the results depend on the processing

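In capillary ECs the direction of the 8 genes was kept under the 17 alternatives, except for Fabp4. Its value went from -0.20 to 0.0096 without NC library 2 (range over single libraries left out -0.38 to 0.0096). Gpihbp1 was called with DESeq2 (-0.41) and without a filter (-0.43), 1 of the 8 genes called in each. The number of genes called, 1 in the fit reported, was 246 with DESeq2, 698 without a filter, 4 under 10% mitochondrial UMIs, 11 without Scrublet's highest scores, 85 after thinning, 2 with a per-cell marker gate, 9 over all ECs, 6 without the cardiomyocyte-led subcluster, and 8 to 633 with 1 library left out (8 without NC 1, 18 without NC 2, 633 without HFpEF 1, 107 without HFpEF 2). The causes were not tested. With the library number as a block, 190 genes were called and none of the 8. Deviations of the libraries numbered 1 from their group means were not correlated between the diets (r = 0.00862 over 7673 genes). A difference in few genes would leave r near 0 too, so that this does not show whether the numbers pair the libraries.

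The alternatives for endocardial ECs and for the subcluster were chosen after seeing the data. The endocardial change of Fabp5 was -0.64 with the marker gate and -1.52 to -1.05 with 1 library left out, and that of Tcf15 -0.75 to 0.55. With the block, Lpl was also called there (1.58, edgeR adjusted p = 0.0235), in a fit that called 37 of 4818 genes tested. Without HFpEF library 2 the log2 fold change of Lpl was 2.06. The endocardial minus capillary difference with 1 library left out was 0.74 to 0.89 for Fabp4, 1.35 to 2.06 for Lpl, 1.02 to 1.38 for Gpihbp1 and -0.11 to 0.65 for Tcf15. After thinning it was 0.73 for Fabp4, -0.89 for Fabp5, 0.80 for Lpl and 0.74 for Gpihbp1. Tcf15 turned to -0.28 at resolution 1.2 and Pparg to -0.37 without Scrublet's highest scores. The ratio of Fabp5 between capillary and vein ECs turned to -0.052 at resolution 1.2. Of 216 alternative values for class levels, which include counts of members above a class beside the ratios, 7 turned or moved by more than the spread. All 7 were ratios of capillary against vein ECs at resolution 1.2. There the log2 ratio shrank for Lpl (0.92 to 0.43), Tcf15 (0.65 to 0.26), Gpihbp1 (1.00 to 0.62), Pparg (1.04 to 0.75), Fabp4 (0.63 to 0.38) and Cd36 (0.24 to 0.10). The size of the vein comparison thus depended on the resolution.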

Other observations

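A class of 130 fibroblasts was found among the sorted RFP-positive cells. Lpl was at 617 and 1063 CPM there in the NC libraries against 1302 and 904 CPM in the HFpEF libraries, above the mural levels of 419 to 530.2 CPM. In NC library 1, with 10 such cells, it lay below the T cell and B cell classes (766 and 778 CPM), and in each other library above both. Gpihbp1 was at 263 and 189 CPM against 113 and 471 CPM. The ranges of the diets overlapped for Lpl and Gpihbp1 in this class. Fabp4 was at 2049 and 2843 CPM in NC against 4301 and 6114 CPM in HFpEF. Cd36 was at 473 and 362 CPM against 509 and 1136 CPM. Both of these, with Fabp5 and Meox2 (2, 5, 4 and 22 UMIs), were apart and higher in HFpEF. Tcf15 overlapped, and Pparg was apart and lower on 1, 2, 0 and 2 UMIs. The share of all genes with libraries apart was not counted in this class of 10, 23, 19 and 78 cells. Fabp4 and Cd36 lay below the T cell and B cell classes in each library, so that they are not read as responses of fibroblasts. Higher values of Fabp4 and Cd36 in HFpEF were thus not particular to endocardial ECs, in either class at levels below the lymphocyte classes.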
